A study of Mus musculus with 6 samples.

Results

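The genes described here are those of the cytosolic ribosomal proteins in mouse germinal vesicle (GV) oocytes. They were chosen by symbol: Rpl or Rps followed by a number and, for some, a letter or a paralog suffix, together with Rplp0, Rplp1, Rplp2 and Rpsa, and without pseudogenes and the S6 kinase genes. The rule found 82 genes among the 17577 listed, of which 50 encode proteins of the large subunit and 32 encode proteins of the small subunit. The rule itself uses names and no measured value.

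A ribosome is built from a large and a small subunit, each a ribosomal RNA core covered by proteins that are mostly present in a single copy, so a cell needs the subunit proteins in balanced amounts. Ribosomal protein mRNAs belong to the TOP class: they begin with a tract of pyrimidines, through which mTOR signalling and the binding protein Larp1 switch their translation on and off together. A fully grown GV oocyte is arrested in the first meiotic prophase, is largely silent in transcription and lives on mRNAs and ribosomes stored while it grew.

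The groups were 3 libraries of Bnc1tr/tr oocytes and 3 libraries of wild-type (WT) oocytes, all from C57BL/6 J mice 12 weeks of age. Bnc1tr/tr mice carry on both copies of Bnc1, which encodes the zinc finger protein basonuclin 1, a frameshift allele that shortens the protein in every tissue, so the oocyte and the cells around it were both mutant. Both genotypes were described in the study's methods as injected with pregnant mare serum gonadotropin before oocytes were punctured from antral follicles, and a single oocyte entered each cDNA reaction of a modified Smart-seq2 protocol. The values were FPKM (fragments per kilobase of transcript per M, or mega, mapped fragments).

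Bnc1 itself stood at 9.04, 6.51 and 5.83 FPKM in Bnc1tr/tr replicates 1 to 3 and at 13.2, 12.5 and 16.2 FPKM in WT replicates 1 to 3, which is lower in every mutant library (log2 fold change -0.89 ± 0.20 SE, limma adjusted p = 0.0090). All 11 oocyte markers examined were above 1 FPKM on average. Their sum was 14470 to 15340 FPKM in Bnc1tr/tr and 16460 to 18020 FPKM in WT, with Dppa3, which was not called, the largest part of it. By the rule for calls given below, 1 of these 11 markers rose (Mos) and 2 fell (Zp2 and Nlrp5). Among all tested genes 24.1% rose and 7.68% fell. Genes at 1 FPKM or more numbered 10682 to 11035 in Bnc1tr/tr and 9518 to 9748 in WT, without overlap, and the part of this difference in the results was not tested. Summed markers of other ovarian cells were low but not equal between the groups, and are given with the results below. The tables hold no read totals, so depth was not used here. FPKM is a share of each library, and less mRNA of a gene per oocyte cannot be told apart from more mRNA of other genes. The study describes the libraries of a genotype as biological replicates and its comparisons as made between littermates, but the mouse or litter behind each library is not given in the sources used here, so p-values measure the spread between these libraries.

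Ribosomal protein mRNAs were among the more abundant messages of the oocyte, but their levels were far from equal. The mean over 6 libraries was highest for Rpl5 (1015 FPKM), which carries the smallest ribosomal RNA into the large subunit together with Rpl11. Rps27l (856 FPKM), Rps29 (829.7 FPKM) and Rpl35 (786 FPKM) followed. The lowest were Rpl22 (8.04 FPKM), Rpl7l1 (8.48 FPKM), Rps20 (9.01 FPKM) and Rps15a (9.62 FPKM). The ends of this order differed between the genotypes. Rps27l was the highest member in all 3 Bnc1tr/tr libraries (mean 1023 FPKM, against 895 FPKM for Rpl5), while Rpl5 was the highest in WT replicates 1 and 2 and Rpl35 in WT replicate 3. In WT the lowest mean was that of Rpl10l (6.93 FPKM), below Rpl22 (8.20 FPKM). Over all 6 libraries the highest mean was 126 times the lowest. The quartiles of the member means were 79.1 and 301 FPKM, the median was 162 FPKM, and 57 of 82 exceeded 100 FPKM. Rpl22, the lowest member, still lay at the 67.2th percentile of all listed genes, and the median member lay at the 95.3th.

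**Figure D1:**
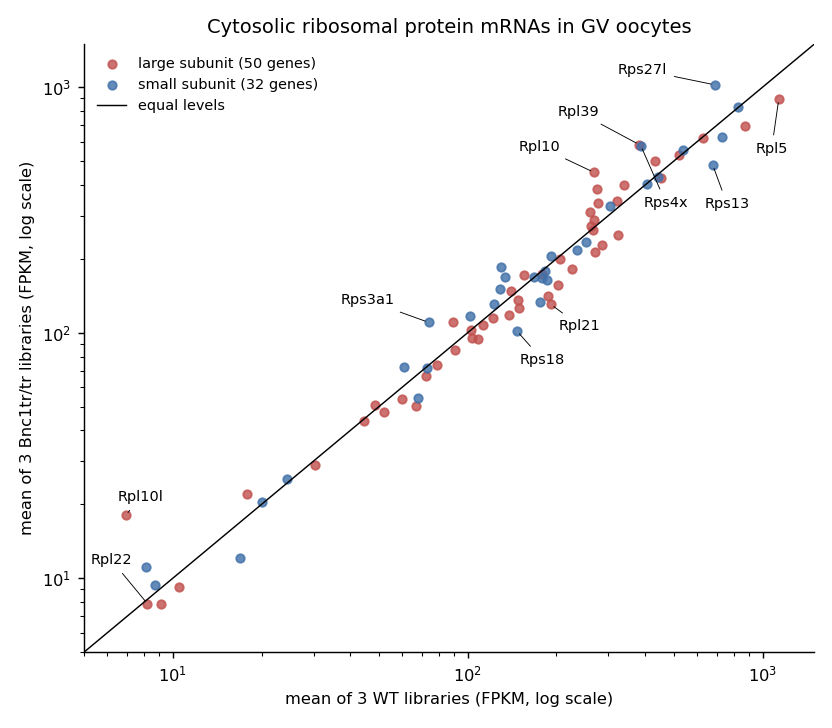
Mean FPKM of each of the 82 ribosomal protein genes in 3 WT libraries (horizontal, log scale) and 3 Bnc1tr/tr libraries (vertical, log scale), coloured by subunit, with the line of equal levels. The genes run along the line from about 8.04 FPKM (Rpl22) to 1015 FPKM (Rpl5, mean of both groups), with Rpl10l, Rpl10 and Rpl39 furthest above it and Rpl21 and Rps18 furthest below it.

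The order of the levels was close to the same in both genotypes (Spearman 0.978 between the group means over 82 genes, a description, since genes of a library are not independent). Level was only weakly related to coding length (Spearman -0.0916) and to the share of a gene's 31-base words that also occur in other genes (Spearman 0.142). Large and small subunit genes spanned similar ranges: the median of the mean levels was 162 FPKM for the 50 large subunit genes and 163 FPKM for the 32 small subunit genes.

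Pyrimidine runs were looked for in the RefSeq promoter windows, which were given for 62 of the 82 members. The windows run from 250 bases before to 50 bases after the annotated start on GRCm38.p6. A run found there need not be the tract with which the mRNA begins. For a gene with several windows, the longest run and any motif match over all of its windows counted. The number of windows per gene was not compared between members and tested genes. A run of at least 8 C or T letters on the gene's own strand lay within 50 bases of the start in 51 of the 62 (82.3%), against 36.6% of the 8546 tested genes with a window. The median longest run was 10 bases in members and 7 in tested genes. Large subunit genes held such a run in 86.8% and small subunit genes in 75%. The motif CCGGAAG, read on both strands and in the whole window, occurred in 41.9% of members and 20.6% of tested genes. TATAAA, read the same way, occurred in 11.3% and 9.84%. The reverse complement of CCGGAAG contains a short run of pyrimidines, so it can overlap the tract. A match describes letters in these windows and does not mark a site.

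The windows below hold the longest pyrimidine run, in capitals, of 6 of the 7 members whose change passed the test. Shown beside them are Rpl36a, the other X-linked member, and Rpl35, whose run as counted here is the longest of those shown. The capitals mark the longest run within 50 bases of the annotated start, which need not be the tract with which the mRNA begins. Counted from the annotated start, the first base of the run lies at -7 in Rpl35 and -2 in Rps18. It lies at 27 in Rpl36a, 28 in Rps3a1, 36 in Rpl39, 40 in both Rpl10 and Rps4x, and -44 in Rpl10l. Of the 7, Rpl21 is named only. The run is 18 bases in Rpl35, at least 14 in Rpl39, 13 in Rpl36a, 11 in Rps18 and at least 10 in Rpl10. It is 7 bases in Rps4x, 6 in Rps3a1 and 5 in Rpl10l. In Rpl39 and Rpl10 the run reaches the last base searched, so its full length is not known.
Rpl35: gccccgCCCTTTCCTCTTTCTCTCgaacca
Rpl39: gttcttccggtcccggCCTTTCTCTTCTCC
Rpl36a: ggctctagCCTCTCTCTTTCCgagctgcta
Rps18: tcacttccgCTCTCTCTTCCacaggaggcc
Rpl10: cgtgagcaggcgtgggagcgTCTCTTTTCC
Rps4x: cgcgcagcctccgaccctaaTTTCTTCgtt
Rps3a1: acgtagacggcgCTCCCCgcccggctcgcg
Rpl10l: cagtctctatgaTTCCCgcaaggcttgatg
These lie at chr2:39005115-39005144 (minus strand) for Rpl35, chrX:37085173-37085202 (minus) for Rpl39, chrX:134585673-134585702 (plus) for Rpl36a, chr17:33955647-33955676 (minus) for Rps18, chrX:74270836-74270865 (plus) for Rpl10, chrX:102189342-102189371 (minus) for Rps4x, chr3:86142623-86142652 (minus) for Rps3a1 and chr12:66284428-66284457 (minus) for Rpl10l. The annotated start of a gene can differ by some bases from the one used in oocytes. The median log2 fold change between genotypes was -0.04 for the 51 members with a run of at least 8 and 0.16 for the 11 without, given as a description.

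Most ribosomal protein mRNAs stood at nearly the same FPKM in Bnc1tr/tr and WT oocytes. All 82 passed the filter on low values (a mean of at least 1 FPKM). In limma on log2(FPKM + 1), with Benjamini-Hochberg adjustment over 10560 genes, a gene was called when its adjusted p was under 0.05 and its log2 fold change lay beyond 0.5 in either direction. By this rule 5 members (6.10%) rose and 2 (2.44%) fell, while 24.1% of all tested genes rose and 7.68% fell. The balance turned around with upper-quartile scaling (2 members rose and 6 fell) and with median-ratio scaling (1 rose and 10 fell). It kept its direction with quantile normalization (7 rose and 3 fell) and with scaling without the ribosomal protein genes (6 rose and 2 fell). Changes within 0.5 in either direction were found for 71 of 82 members (86.6%) and for 59.5% of all tested genes. Among genes that averaged 100 FPKM or more these shares were 84.2% of members and 76.2% of tested genes. The median log2 fold change was -0.04 over members and 0.15 over all tested genes. Among the 1288 tested genes that averaged 100 FPKM or more the median was -0.06, with 9.47% higher and 9.39% lower, and the 57 members above that level had a median of -0.02. The member median thus lay lower than that of all tested genes, by 0.18 on the log2 scale, a direction that turned around under quantile normalization (members -0.04, all tested genes -0.10).

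The groups did not overlap for 14 members that were higher in every Bnc1tr/tr library (17.1%) and 10 that were lower in every one (12.2%). In all tested genes these shares were 32.7% and 14.1%. Among tested genes that averaged 100 FPKM or more they were 17.8% and 23.4%, and among members above that level 17.5% and 15.8%. The 14 were Rpl10l, Rpl10, Rps27l, Rpl39, Rps4x, Rps3a1, Rps27, Rplp0, Rps15a, Rps10, Rps28, Rpl7a, Rplp2 and Rps2. The 10 were Rpl21, Rps18, Rps13, Rps6, Rpl39l, Rpl5, Rpl4, Rpl15, Rplp1 and Rpl6. The other 58 overlapped. The log2 fold changes of the 75 members that were not called ran from -0.50 (Rps13) to 0.63 (Rps27l).

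**Figure D2:**
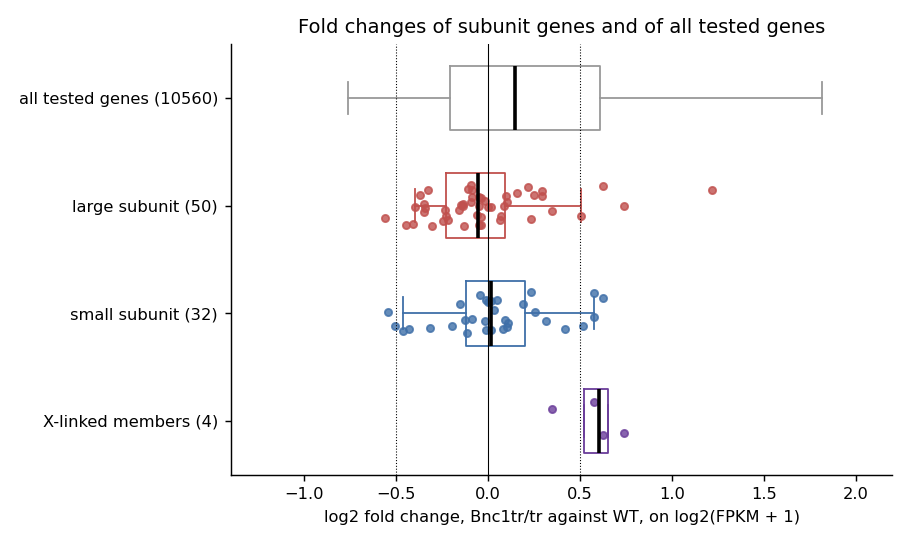
Log2 fold change between Bnc1tr/tr and WT oocytes on the log2(FPKM + 1) scale for all tested genes, for large and small subunit genes and for the 4 X-linked members. Boxes span the quartiles with the median as a thick line, whiskers reach the 5th and 95th percentiles, points are single genes, and dotted lines mark 0.5 in each direction; 71 of the 82 members fall between the dotted lines.

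The number of calls depended on single libraries. Without Bnc1tr/tr replicate 1, 2 or 3 in turn, 3, 1 and 2 members rose and 0, 4 and 0 fell. Without WT replicate 1, 2 or 3, 3, 2 and 7 rose and 0 fell in each case. The shares of all tested genes called in these fits are not given here. Whether members differ from other genes in this dependence was not tested. At an unadjusted p under 0.05 in limma, 9 members rose and 4 fell with all 6 libraries, and 1 to 4 fell in the fits that called 0. For this and later counts at an unadjusted p, the share of all tested genes is not given here.

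Large and small subunit genes were compared with each other. Of the 50 large subunit genes 3 rose and 1 fell, 18 had a positive and 32 a negative log2 fold change, and the median was -0.06 (quartiles -0.23 and 0.10). Of the 32 small subunit genes 2 rose and 1 fell, 18 were positive and 14 negative, and the median was 0.01 (quartiles -0.12 and 0.20). The medians of the subunits lay closer together than the quartiles of either.

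Members together held 2.56, 3.02 and 2.67% of the FPKM total in the Bnc1tr/tr libraries and 2.50, 2.67 and 2.91% in the WT libraries, in the order of their numbers. The means, 2.75% ± 0.24 (SD, n = 3) and 2.69% ± 0.21 (SD, n = 3), differed by less than the spread between libraries. The ratio of the median large subunit level to the median small subunit level was 0.80, 0.90 and 0.89 in Bnc1tr/tr and 1.03, 0.95 and 1.05 in WT, with every mutant library below every WT library. The ratio of the summed levels was 1.35, 1.36 and 1.38 in Bnc1tr/tr and 1.49, 1.49 and 1.34 in WT. Here the groups overlapped, because WT replicate 3 lay below all 3 mutant libraries. Without Rpl5, Rps27l and Rps29, the 3 most abundant members, the ratio of sums was 1.63 in Bnc1tr/tr and 1.60 in WT, so its direction rests on these genes. Neither ratio was tested.

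**Figure D3:**
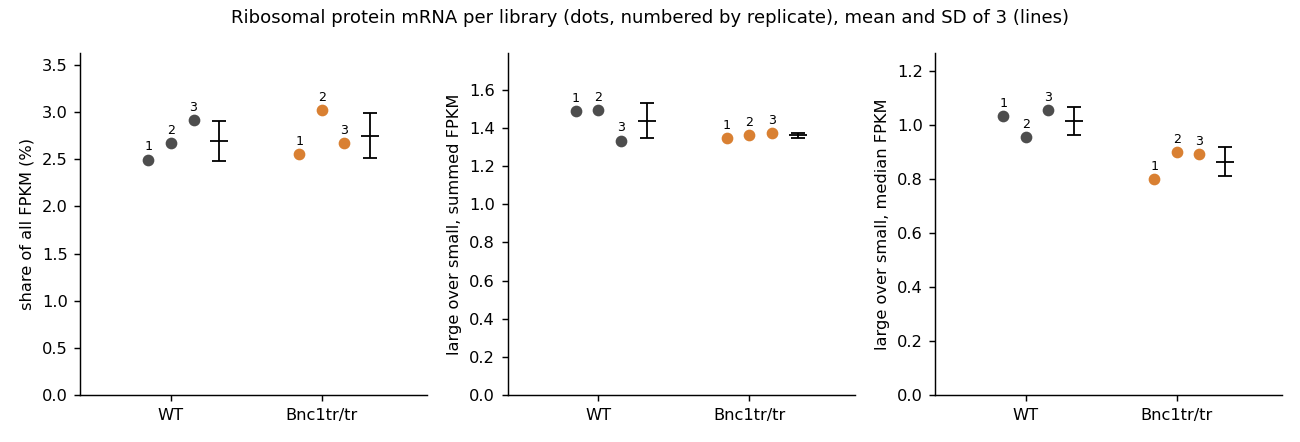
Share of all FPKM held by the 82 genes (left, percent), ratio of summed FPKM (middle) and of median FPKM (right) of large to small subunit genes in each library. Dots are libraries numbered by replicate, lines the mean and SD of 3; the share spans 2.50 to 3.02% with the groups mixed, and the ratio of medians lies at 0.80 to 0.90 in Bnc1tr/tr and 0.95 to 1.05 in WT.

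Libraries of a genotype also differed among themselves across the whole family. Within Bnc1tr/tr, replicate 2 had the highest value of 70 of the 82 members and replicate 1 the lowest of 55. Within WT, replicate 3 had the highest value of 57 members and replicate 1 the lowest of 53. The log2 ratio of WT replicate 3 to the other WT libraries fell with coding length (Spearman -0.561 over 82 genes, a description), and the same ratio for Bnc1tr/tr replicate 2 had a Spearman of 0.139. Rps29 was at 719.8, 760.2 and 1005 FPKM in WT replicates 1 to 3 and at 733, 909 and 851 FPKM in Bnc1tr/tr. Rpl35 was at 678, 785 and 1158 FPKM in WT and at 555, 815 and 723 FPKM in Bnc1tr/tr. For both genes WT replicate 3 was the highest of the 6 libraries and the groups overlapped.

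Rpl10l had the largest change of the family. It encodes an autosomal, intronless copy of the X-linked Rpl10 that is known for replacing it during male meiosis. It stood at 25.3, 15.3 and 13.6 FPKM in the Bnc1tr/tr libraries and at 6.94, 6.34 and 7.50 FPKM in the WT libraries. Every mutant library was above every WT library, with replicate 1 the highest. The means were 18.0 ± 6.30 and 6.93 ± 0.58 FPKM (SD, n = 3), a log2 fold change of 1.22 ± 0.23 (SE, limma adjusted p = 0.0041). Its adjusted p stayed under 0.05 in all 16 alternatives run, with log2 fold changes from 0.93 to 1.39. Rpl10l shared 23.4% of its words with other genes but 0% with listed ones, so reads of Rpl10 could be told from it at this word length.

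Rpl10 encodes a protein that joins the large subunit late, next to the site where peptide bonds are made. Its values were 389, 527 and 434 FPKM in Bnc1tr/tr and 250.1, 307 and 247 FPKM in WT. The lowest mutant library exceeded the highest WT library. The log2 fold change was 0.74 ± 0.18 (SE, limma adjusted p = 0.015).

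Rpl39 encodes a very small protein of the tunnel through which new chains leave the ribosome. It was measured at 541, 645 and 563 FPKM in Bnc1tr/tr and 330, 340 and 477 FPKM in WT (log2 fold change 0.62 ± 0.19 SE, limma adjusted p = 0.037). WT replicate 3 stood apart from the other WT libraries and closest to the mutant ones.

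Rps4x, an X-linked gene of the small subunit, was at 517, 678 and 541 FPKM in Bnc1tr/tr and 349.6, 365 and 444 FPKM in WT (log2 fold change 0.58 ± 0.18 SE, limma adjusted p = 0.039). Rps3a1, whose protein lies near the exit of the mRNA from the small subunit, was at 98.6, 120.5 and 112 FPKM in Bnc1tr/tr and 80.0, 76.6 and 64.6 FPKM in WT (log2 fold change 0.57 ± 0.17 SE, limma adjusted p = 0.031). For both genes the groups did not overlap.

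**Figure D4:**
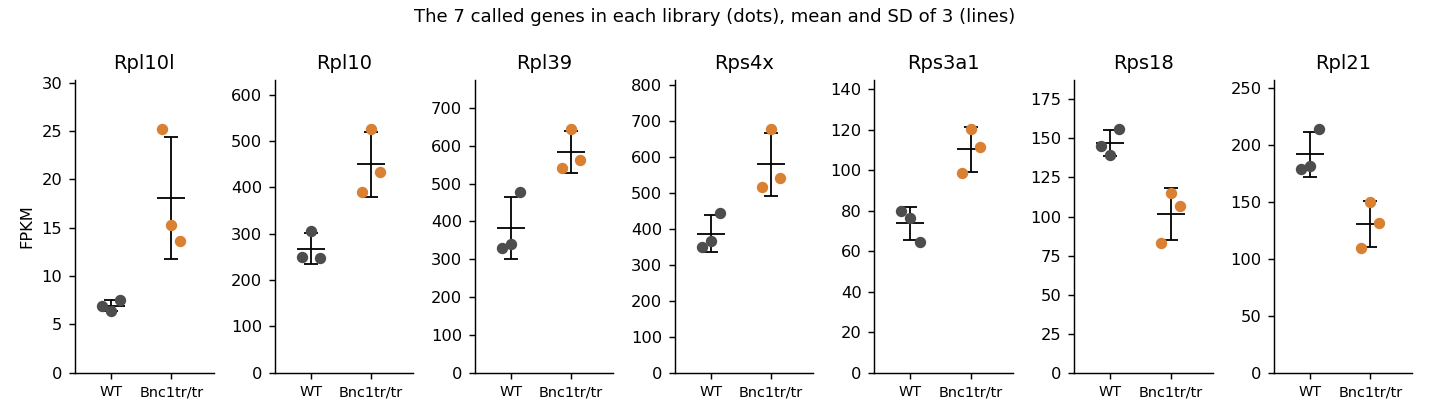
FPKM of the 7 called ribosomal protein genes in each of the 3 WT and 3 Bnc1tr/tr libraries (dots), with the mean and SD of 3 as lines; each panel has its own linear axis from 0. Rpl10l, Rpl10, Rpl39, Rps4x and Rps3a1 were higher and Rps18 and Rpl21 lower in every Bnc1tr/tr library, with Rpl10l at 6.34 to 7.50 FPKM in WT and 13.6 to 25.3 FPKM in Bnc1tr/tr.

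The genes that fell were Rpl21 and Rps18. Rpl21, of the large subunit, was at 109.7, 150.2 and 131 FPKM in Bnc1tr/tr and 179, 182 and 214 FPKM in WT (log2 fold change -0.56 ± 0.18 SE, limma adjusted p = 0.042). Rps18, whose protein sits in the head of the small subunit where it touches the large one, was at 82.7, 115 and 106 FPKM in Bnc1tr/tr and 145, 139.6 and 156 FPKM in WT (log2 fold change -0.54 ± 0.18 SE, limma adjusted p = 0.046). In both genes replicate 2 was the highest of the mutant libraries, as for most members, and still lay below every WT library. Of the called genes other than Rpl10l, adjusted p stayed under 0.05 in 14 of 16 alternatives for Rpl10, 10 for Rps3a1, 10 for Rpl21, 9 for Rps18, 8 for Rps4x and 7 for Rpl39.

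Several members lay just outside the calls. Rps27l encodes a near copy of Rps27 and is known as a target of p53. It was at 974, 1001 and 1094.5 FPKM in Bnc1tr/tr and at 543, 549.5 and 972 FPKM in WT. The groups did not overlap by a margin of a few FPKM, because WT replicate 3 reached the mutant level (log2 fold change 0.63 ± 0.24 SE, limma adjusted p = 0.078). Without WT replicate 3 the log2 fold change was 0.90 (adjusted p = 0.0038). Rps27 had a log2 fold change of 0.52 (adjusted p = 0.062) and was higher in every mutant library. Rps13 was at 426, 596 and 425 FPKM in Bnc1tr/tr and 608, 683 and 742 FPKM in WT (log2 fold change -0.50 ± 0.19 SE, limma adjusted p = 0.076). Rps15a, one of the lowest members, had a log2 fold change of 0.42 (adjusted p = 0.086) and Rpl10a of -0.44 (adjusted p = 0.16).

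Of the 4 members on the X chromosome 3 rose: Rpl10, Rpl39 and Rps4x. The other one, Rpl36a, was at 91.0, 132 and 108 FPKM in Bnc1tr/tr and 56.0, 99.0 and 113 FPKM in WT, with overlapping groups (log2 fold change 0.35 ± 0.27 SE, limma adjusted p = 0.37). This grouping was made after the values had been seen and was not tested. The median log2 fold change was 0.60 for the 4 X-linked members and -0.04 for the 78 autosomal ones, of which 2 rose (Rpl10l and Rps3a1) and 2 fell. Among all tested genes the medians were 0.28 for 372 X-linked genes, of which 29.8% rose, and 0.14 for 10156 autosomal genes, of which 23.9% rose. The X chromosome had the highest median of the chromosomes.

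Members were then taken by role. The stalk recruits the GTPases of translation through Rplp0, Rplp1 and Rplp2. Rplp0 was at 394, 405 and 359.9 FPKM in Bnc1tr/tr and 316, 292 and 217 FPKM in WT (log2 fold change 0.51 ± 0.19 SE, limma adjusted p = 0.070). Rplp2 was also higher in every mutant library (376, 416 and 404 against 322, 328 and 367 FPKM, log2 fold change 0.23, adjusted p = 0.29), whereas Rplp1 was lower in every one (172, 206 and 166 against 226, 238 and 215 FPKM, log2 fold change -0.33, adjusted p = 0.16). No stalk gene passed the test.

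Rpl5 and Rpl11 form a particle with the smallest ribosomal RNA that, when unassembled, binds the p53 regulator Mdm2. Rpl5 was at 776, 976 and 933 FPKM in Bnc1tr/tr and 1106, 1157 and 1143 FPKM in WT, lower in every mutant library (log2 fold change -0.35 ± 0.16 SE, limma adjusted p = 0.14). Rpl11 overlapped between groups, with means of 200.05 ± 20.8 and 206 ± 30.7 FPKM (SD, n = 3). Neither passed the test.

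Rps6, the protein whose phosphorylation by S6 kinase reports mTOR activity, was one of the lower members in level. It was at 10.7, 12.2 and 13.2 FPKM in Bnc1tr/tr and 16.4, 15.7 and 18.8 FPKM in WT, and the groups did not overlap (log2 fold change -0.46 ± 0.17 SE, limma adjusted p = 0.062). Rpsa, also known as the laminin receptor, had means of 20.5 ± 5.79 and 20.01 ± 3.06 FPKM (SD, n = 3). Rps27a, made as a fusion to ubiquitin, had a log2 fold change of -0.12 (adjusted p = 0.69). Fau, which encodes a ribosomal protein fused to a ubiquitin-like protein and is outside the naming rule, had a log2 fold change of -0.12 (adjusted p = 0.70).

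Rack1, a scaffold on the small subunit that the naming rule also leaves out, was at 201, 158 and 186 FPKM in Bnc1tr/tr and 107.9, 109.4 and 98.3 FPKM in WT (log2 fold change 0.78 ± 0.17 SE, limma adjusted p = 0.0074). Every mutant library was above every WT library.

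Several members exist as pairs of a gene and a paralog, and the parent gene did not always have the higher FPKM. Words shared with other genes made up 67.5% for Rpl22l1 and 9.78% for Rpl22, and 22.9% for Rps27l and 50.1% for Rps27. For Rpl36al and Rpl36a the shares were 23.4% and 88.3%. The part of this sharing in the ratios was not tested. Rpl22l1 exceeded Rpl22 by 6.06 ± 1.06 times in Bnc1tr/tr and 6.38 ± 0.32 times in WT (SD, n = 3). Rps27l exceeded Rps27 by 5.55 ± 0.47 and 5.24 ± 1.15 times. Rpl36al, a close relative of Rpl36a outside the naming rule, exceeded it by 4.81 ± 0.14 and 6.25 ± 2.02 times. Rpl7l1 stood at 0.084 of Rpl7 in both genotypes. For these pairs the ratios overlapped between the groups. The ratio of Rpl37rt, outside the naming rule and named after its values were seen, to Rpl37 did not overlap: it was 4.72, 4.80 and 4.86 in Bnc1tr/tr and 8.49, 7.05 and 6.65 in WT. Rpl37rt itself fell (log2 fold change -0.65 ± 0.20 SE, limma adjusted p = 0.035), whereas Rpl37 had a log2 fold change of -0.04, and 35.3% of the words of Rpl37 occur in Rpl37rt.

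Rpl39l, a paralog of Rpl39 that is known for high levels in the testis, also had a ratio that did not overlap. Rpl39l itself was at 116, 189 and 164 FPKM in Bnc1tr/tr and 189.6, 203 and 213 FPKM in WT (log2 fold change -0.39 ± 0.20 SE, limma adjusted p = 0.17). Its ratio to Rpl39 was 0.22, 0.29 and 0.29 in Bnc1tr/tr and 0.57, 0.60 and 0.45 in WT. Each mutant ratio was below each WT ratio, with means of 0.27 ± 0.04 and 0.54 ± 0.08 (SD, n = 3). The ratio was not tested. Rpl10l remained at 0.042 of Rpl10 in Bnc1tr/tr and 0.026 in WT, with overlapping ratios.

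**Figure D5:**
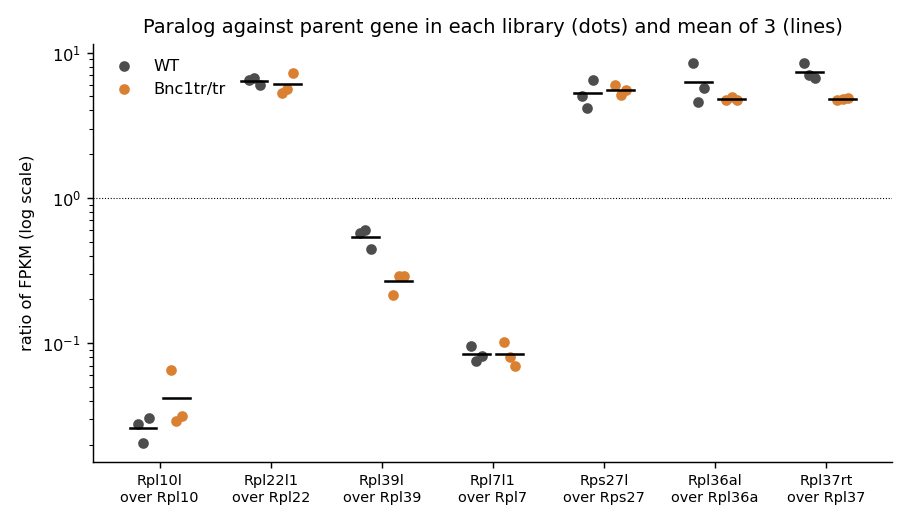
Ratio of the FPKM of a paralog to that of its parent gene (log scale) in each WT and Bnc1tr/tr library (dots) with the mean of 3 (lines); the dotted line marks equal levels. Rpl22l1, Rps27l, Rpl36al and Rpl37rt exceed their relatives in all 6 libraries, and the ratio of Rpl39l to Rpl39 is 0.45 to 0.60 in WT and 0.22 to 0.29 in Bnc1tr/tr.

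Ribosomal protein genes have many processed copies in the genome, and the deposited values do not show how shared reads were assigned. Over the 82 members, a median of 45.7% of a gene's 31-base words occurred in transcripts of other annotated genes, and 35 members shared more than 50% of them. Among the called genes the share was 75.8% for Rpl10, 78.4% for Rps4x, 76.9% for Rps3a1 and 86.2% for Rps18, so their levels are uncertain, and 23.7% for Rpl39, 23.4% for Rpl10l and 20.9% for Rpl21. Rpl10 had 39.5% of its words in the listed gene Gm5621, and Rps27 had 49.8% in Rps27rt. In 30 members small nucleolar RNA genes lie within the bounds of the gene. The log2 fold change was only weakly related to word sharing (Spearman -0.095), to coding length (Spearman -0.0721) and to mean level (Spearman 0.0825).

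Genes that work with the ribosomal proteins were taken from lists written by hand. Of 40 tested ribosome assembly factors 5 rose and 0 fell in limma (7 and 4 at an unadjusted p under 0.05), that is 12.5% higher beside 24.1% of all tested genes. The 5 were Gtpbp4, a GTPase of large subunit assembly (log2 fold change 0.94), Riok2, a kinase of late small subunit assembly (0.84), Dkc1, the pseudouridine synthase of small nucleolar particles (0.79), Rrp12 (0.70) and Utp20 (0.59). The list's median was 0.13, beside 0.15 for all tested genes. At the lower end, Gnl2 had a log2 fold change of -0.70 with overlapping groups (adjusted p = 0.079).

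Of 10 chaperones of ribosomal proteins 0 rose and 2 fell in limma (0 and 3 at an unadjusted p under 0.05), namely Bccip (log2 fold change -0.79) and Pdcd2l (-0.61). The background shares were 24.1% higher and 7.68% lower, and 7 of the 10 had positive log2 fold changes, with a median of 0.20. Of 11 tested genes of mTOR and TOP mRNA control 2 rose (18.2%, beside 24.1% of all tested genes) and 1 fell (9.09%, beside 7.68%). Eif4ebp1, an inhibitor of cap-dependent initiation that mTOR switches off, rose from 6.62, 3.46 and 4.29 FPKM in WT to 36.4, 20.8 and 21.2 FPKM in Bnc1tr/tr (log2 fold change 2.22). Larp4, which binds poly(A) tails, rose by 0.60 on the log2 scale. Pdcd4, an inhibitor of the initiation helicase, fell by 1.07 on the log2 scale. Of 18 other mRNAs known for a TOP tract 1 rose (Rack1) and 1 fell (Eif3f, -0.83), each 5.56% of the list, with a median of -0.03.

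The proteins of the mitochondrial ribosome are encoded by a separate gene set. Of 77 tested, 3 rose and 3 fell (3.90% each, beside 24.1% and 7.68% of all tested genes), and the median log2 fold change was -0.11. The extremes were Mrps26 (1.12) and Mrpl39 (-1.82), both called, so the range was wider than the -0.56 to 1.22 of the cytosolic members.

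Several marker sums of other ovarian cells differed between the genotypes in the same libraries. The calls among these markers stand beside 24.1% of all tested genes that rose and 7.68% that fell. Granulosa and cumulus markers summed to 43.3 to 60.4 FPKM in Bnc1tr/tr and 22.7 to 39.9 FPKM in WT, with 2 of 9 listed genes higher (Fshr and Kitl). Cyp19a1 was the largest part of this sum and was not called. It was at 27.5, 44.4 and 33.5 FPKM in Bnc1tr/tr and 23.45, 29.0 and 17.4 FPKM in WT. Inha, not called, was lower on average: 0.18, 1.81 and 0.09 FPKM in Bnc1tr/tr and 6.78, 3.45 and 0.04 FPKM in WT. Hsd17b1, under the filter on low values, had means of 0.20 FPKM in Bnc1tr/tr and 0.79 FPKM in WT. Theca and stroma markers summed to 11.1 to 15.3 and 2.62 to 3.71 FPKM, with 2 of 7 higher (Cyp11a1 and Dcn). Surface epithelium markers summed to 2.76 to 4.66 and 0.53 to 0.84 FPKM, with 1 of 3 higher. Endothelial markers summed to 5.38 to 8.10 and 10.1 to 11.7 FPKM, with 1 of 4 lower (Pecam1). Kdr went the other way, at 1.54, 0.64 and 0.53 FPKM in Bnc1tr/tr and 0.10, 0.12 and 0.07 FPKM in WT, and lay under the filter on low values. Immune markers summed to 0.74 to 51.3 FPKM in Bnc1tr/tr, and red blood cell markers to 0 to 10.1 FPKM. All immune and red blood cell markers were listed at 0 in WT. The part of these cells in the values of the ribosomal protein genes was not tested.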

How the data were processed

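GV oocytes were profiled by a modified Smart-seq2 protocol. The authors deposited a table per library with FPKM for 17577 genes. The submitters' processing notes name HISAT2 2.0.4, Bowtie2 2.2.5, RSEM 1.2.12 and the build GRCm38.p6, with no role or order. Symbols turned into dates (25) were restored through the NCBI Gene ID. Read depth was not given in the tables.

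Genotypes were compared by limma 3.58.1 (R 4.3.3) across the genes whose mean reached 1 FPKM, with values as log2(FPKM + 1) and Benjamini-Hochberg adjustment over all of those genes. This scale understates the change of low genes. The script was tested on simulated data. Sequences and starts came from RefSeq, 31-base words and coding lengths from GENCODE M21. Figures were drawn with matplotlib 3.10.9.

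Members and lists were chosen with earlier results of these data known, the X-linked grouping after seeing the values. Named were the 6 highest and 6 lowest fold changes, called members, the 4 highest and 4 lowest levels, paralog pairs, members by role and the extremes of each list. Rpl3l and Rps4l were not analysed here. Some named genes are not reported here. Calls in the lists were described without a set test. Other pseudocounts, filters, scalings, a replicate block and leaving out libraries were tried.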

Additional observations from a re-analysis of the deposited data

How the results depend on the processing

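The count of ribosomal protein genes that rose (5) was 3 with a pseudocount of 0.1, 2 with upper-quartile scaling and 1 with median-ratio scaling, and 1 to 7 when libraries were left out in turn. The count that fell (2) was 0, 6 and 10 under the first 3 of these, and 0 to 4 with libraries left out. With quantile normalization 7 rose and 3 fell, and with scaling without the ribosomal protein genes 6 rose and 2 fell. The shares of all tested genes called in these fits are not given here, so the counts describe members only. With a pseudocount of 0.1, limma had 4 negative members at an unadjusted p under 0.05. The median over all 10560 tested genes was 0.15 on the log2 scale, and became -0.003 with upper-quartile, -0.05 with median-ratio and -0.10 with quantile scaling, so directions hold only relative to it. With median-ratio scaling the median was -0.25 for members and -0.21 for small subunit genes. Without the 3 most abundant members the difference in the ratio of summed large to small subunit levels was 0.0296 in place of -0.0778.

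Same-numbered libraries deviated together with correlations of 0.28, -0.03 and 0.12, so the numbers were not taken as pairs. Fitted with replicate as a block, 7 members rose and 2 fell, adding Rps27 and Rps27l, with log2 fold changes as before. No other call of a member changed under the block.

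Small log2 fold changes changed sign. With upper-quartile and median-ratio scaling these were Rpl36al (-0.15 and -0.20), Rps20 (-0.0649 and -0.11), Rps29 (-0.16 and -0.21) and Rpsa (-0.16 and -0.21). With quantile normalization they were Rpl11 (0.0164), Rps20 (-0.21) and Rpsa (-0.21), and with a pseudocount of 0.1 Rpsa (-0.0005). Over the fits without single libraries, ranges that crossed 0 were -0.22 to 0.0393 for Fau, -0.16 to 0.0486 for Rpl11, -0.12 to 0.045 for Rpl22, -0.27 to 0.11 for Rpl3, -0.14 to 0.18 for Rpl36al, -0.014 to 0.18 for Rps20, -0.0781 to 0.16 for Rps29 and -0.12 to 0.25 for Rpsa. Of 720 alternative values over 45 named genes, 616 kept direction and side of the threshold, 43 lost significance, 29 gained it and 32 changed sign. The cause was not tested.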
